A study of Mus musculus with 4 samples.

Results

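Single-cell RNA sequencing of mouse liver leukocytes was used to follow 7 genes of the cytotoxic granule: the granzyme genes Gzma, Gzmb, Gzmc, Gzmk and Gzmm, the perforin gene Prf1 and the granule membrane gene Nkg7. They were chosen by symbol, and all 7 were found among the 32285 features of the 4 matrices. The cells were CD45-positive liver cells of IL-22sgBFP mice, in which the fluorescent protein BFP reports Il22. They were taken 12 h after MC38 colon carcinoma cells had been injected into the spleen, or before any injection (0 h), and each time was sorted into a BFP-positive and a BFP-negative library. This gave 1 library for each of 4 groups, which are IL-22-positive at 12 h, IL-22-positive at 0 h, IL-22-negative at 12 h and IL-22-negative at 0 h. How many mice were pooled is not given in the labels, and the 12 h groups have no counterpart that received the injection without MC38 cells, so the cancer cells and the surgery cannot be told apart. With 1 library in each group there is no replicate, no test was run, and each ratio compares 2 libraries.

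Granzymes are serine proteases stored in the granules of natural killer (NK) cells and cytotoxic T cells, and perforin forms the pores through which they reach the target cell. The liver is rich in NK cells, in resident type 1 innate lymphoid cells (ILC1), and in innate-like T cells that carry the transcription factor PLZF. Granzyme A is a tryptase, granzyme B cuts after aspartate and activates caspases, granzyme C belongs to the rodent granzymes encoded beside granzyme B, granzyme K is a tryptase, granzyme M cuts after methionine, and Nkg7 is a granule membrane protein needed for full degranulation.

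In GRCm38 the 7 genes lie on 4 chromosomes, and all are protein coding. Gzmb (chr14:56258838-56262260) and Gzmc (chr14:56231441-56234656) are neighbours on the minus strand of chromosome 14, with 24182 bp between them. Gzma (chr13:113093825-113100981) and Gzmk (chr13:113171608-113225908) lie on the minus strand of chromosome 13, Prf1 (chr10:61297833-61304680) and Gzmm (chr10:79689020-79695261) on the plus strand of chromosome 10, and Nkg7 (chr7:43437073-43438249) on the plus strand of chromosome 7. In the last 500 bases of their transcripts, which this 3′ assay reads, no member shared a run of 31 bases with another member or with Gzmd, Gzme, Gzmf, Gzmg or Gzmn. The promoters of Gzmb and Gzmc are shown because they were the 2 members past 1.5-fold higher at 12 h in NK-like cells. Each is the 250 bases before the RefSeq start (GRCm38.p6, minus strand, 5′ to 3′), at chr14:56262335-56262584 for Gzmb and chr14:56234658-56234907 for Gzmc, with the motif matches in capitals.
Gzmb: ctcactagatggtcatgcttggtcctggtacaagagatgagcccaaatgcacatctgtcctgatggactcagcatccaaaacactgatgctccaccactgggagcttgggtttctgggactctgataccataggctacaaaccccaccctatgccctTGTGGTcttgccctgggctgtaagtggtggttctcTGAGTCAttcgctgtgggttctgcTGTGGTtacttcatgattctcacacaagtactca
Gzmc: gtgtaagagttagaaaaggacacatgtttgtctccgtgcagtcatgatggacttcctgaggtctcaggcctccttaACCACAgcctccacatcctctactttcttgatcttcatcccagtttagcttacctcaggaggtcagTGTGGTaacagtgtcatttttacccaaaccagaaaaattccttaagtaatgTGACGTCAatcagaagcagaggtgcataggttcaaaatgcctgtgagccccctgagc
Motifs were searched on both strands: AP-1 (TGANTCA), CRE (TGACGTCA), Runx (TGTGGT), STAT (TTCNNNGAA), the interferon-stimulated response element (GAAA, any 2 bases, GAAA) and T-box (AGGTGTGA). Counting back from the start, Gzmb held TGAGTCA, an AP-1 match, from -58 to -52 and Runx matches from -93 to -88 and -34 to -29. Gzmc held TGACGTCA, a CRE match, from -57 to -50 and Runx matches from -174 to -169 and -108 to -103. Of 32851 promoters of this length, 6.75% held the AP-1 motif, 1.55% the CRE motif, 14.0% the Runx motif, 7.02% the STAT motif, 2.98% the interferon-stimulated response element and 1.12% the T-box motif. Neither window held any of the last 3.

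After filtering and removal of doublets, 1350 IL-22-positive cells of 12 h, 289 of 0 h, 9492 IL-22-negative cells of 12 h and 7928 of 0 h were kept, with median depths of 3726, 3387, 2153 and 1794 UMIs (unique molecular identifiers, 1 for each captured transcript). Cell barcodes shared between libraries numbered 151 over all pairs, and 116 of them were shared by the 2 IL-22-negative libraries. Cells were clustered without the 7 members and without Il22, and clusters were named from marker lists. Sub-clusters with Ncr1 and little Cd3e were named NK-like where summed Eomes, Itga2 and Klra8 exceeded summed Cxcr6, Itga1 and Il7r, and ILC1-like otherwise. The cut-offs were set after the clusters were seen, and the levels of these genes describe the labels but do not test them. Eomes stood at 154 CPM (the gene's UMIs over all UMIs of the class, on the usual CPM scale) at 12 h and 160.3 CPM at 0 h in NK-like cells. In ILC1-like cells it stood at 4.51 and 9.12 CPM. Itga1 stood at 13.8 and 16.4 CPM in NK-like cells and at 119 and 155 CPM in ILC1-like cells. A sub-cluster is called Cd160 and Trdc T after 2 of the genes that set it most apart from other lymphocytes. Klra5, Klra6 and Klra7 came before these 2 genes. The sub-cluster held Trdc at 108 CPM (12 h) and 131 CPM (0 h) and is not purely gamma-delta. It held Trac at 153 and 142 CPM, beside 161 and 170 CPM in innate-like PLZF T cells. Its 10 markers shared by NK cells and ILC1 summed to 8147 and 7964 CPM. Values below come from the IL-22-negative libraries unless stated, as CPM with exact 95% intervals that cover counting error only. UMIs of 1 cell are not independent, so these intervals are too narrow where few cells hold most of a gene's UMIs.

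**Figure D1:**
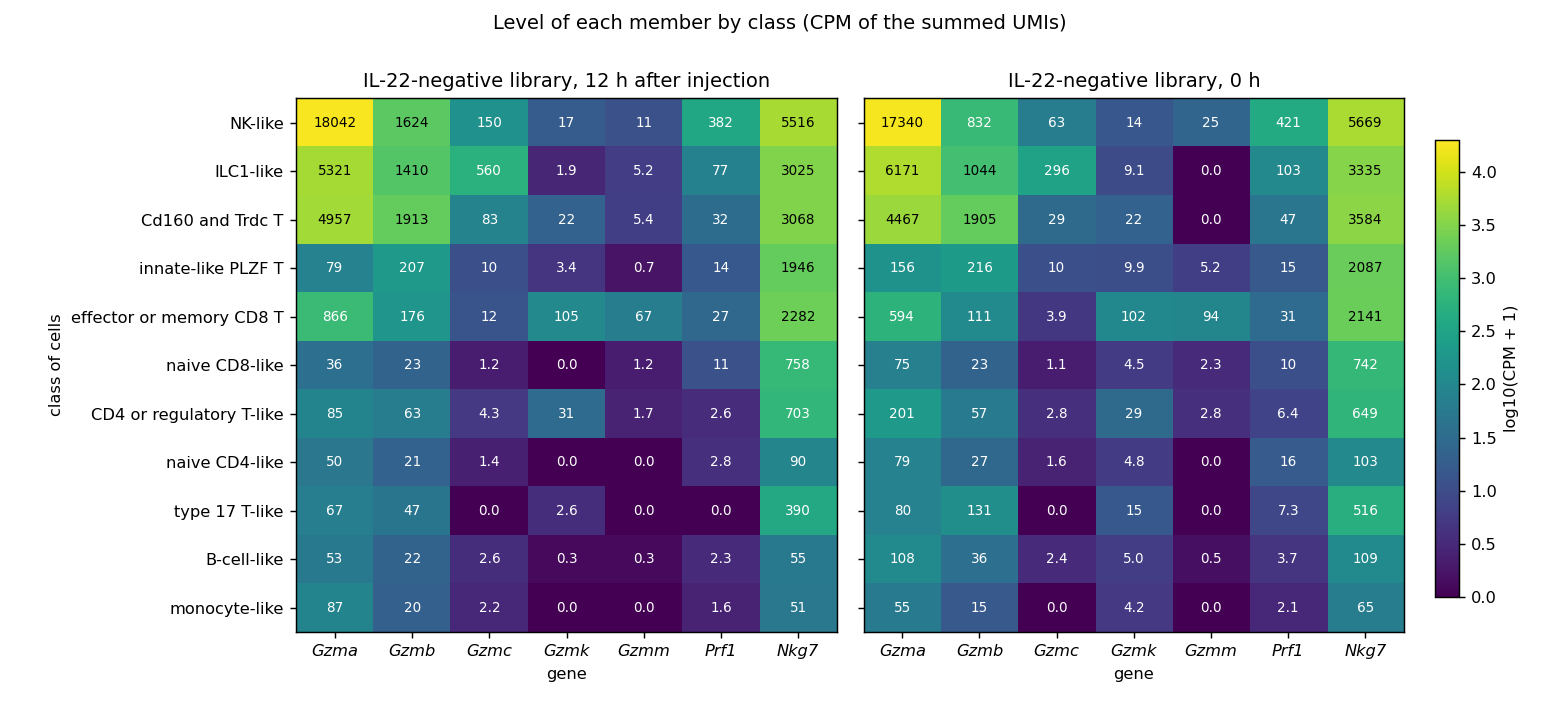
Level of the 7 genes (columns, CPM of the summed UMIs, colour on a log10 scale) in 11 classes of cells (rows) at 12 h (left) and 0 h (right) in the IL-22-negative libraries. Gzma, Prf1 and Nkg7 peak in NK-like cells, Gzmb in Cd160 and Trdc T cells, Gzmc in ILC1-like cells, and Gzmk and Gzmm in effector or memory CD8 T cells.

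The background came first, because free RNA in the droplets gives UMIs in cells that do not make a gene. B-cell-like cells, which should lack all 7, held Gzma at 52.8 CPM (45.4 to 61.1) at 12 h and 108 CPM (97.5 to 118) at 0 h, Nkg7 at 54.6 and 109 CPM, and Gzmb at 22.3 and 36.3 CPM. No B-cell-like cell held more than 3 Gzma UMIs at either time. All 3 genes were lower at 12 h, with ratios of 0.491 (0.410 to 0.586) for Gzma, 0.501 (0.419 to 0.596) for Nkg7 and 0.615 (0.460 to 0.819) for Gzmb. Monocyte-like cells held Gzma at 87.3 CPM at 12 h and 54.9 CPM at 0 h, but 1 of their 341 cells at 12 h carried 53 of the 162 UMIs. Prf1 stood at 2.32 and 3.66 CPM, Gzmc at 2.61 and 2.35 CPM, Gzmk at 0.29 and 4.96 CPM and Gzmm at 0.29 and 0.52 CPM in B-cell-like cells. In monocyte-like cells Gzmb stood at 19.9 CPM (14.0 to 27.5) at 12 h and 14.8 CPM (5.94 to 30.5) at 0 h, with overlapping intervals.

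Gzma reached the highest level of the 7, and NK-like cells held most of it. It reached 18042 CPM (17819 to 18268) in 634 NK-like cells at 12 h and 17339.7 CPM (17039 to 17644) in 334 at 0 h. ILC1-like cells followed at 5321 and 6171 CPM, Cd160 and Trdc T cells at 4957 and 4467 CPM, and effector or memory CD8 T cells (2 sub-clusters rich in Cd8b1 and Ccl5, taken as 1 class) at 866 CPM (828 to 905) and 594 CPM (559 to 631). The intervals of these neighbours did not overlap at either time. NK-like cells made up 6.68% of kept cells at 12 h and 4.21% at 0 h but held 57.6% and 53.8% of all Gzma UMIs. Kept cells, here and below, take in unnamed low-UMI clusters of 528 cells at 12 h and 1798 at 0 h. Shares of kept cells are therefore not to be compared between the times. The median NK-like cell held 35.0 Gzma UMIs at 12 h and 34.0 at 0 h, against 3.0 and 3.0 in ILC1-like cells. A cycling cluster of mixed type held 2515 and 2885 CPM. Below these, CD4 or regulatory T-like cells stood at 84.5 CPM at 12 h and 201 CPM at 0 h. Innate-like PLZF T cells, the class that holds the invariant NKT cells of the liver, stood at 78.7 and 156 CPM, and type 17 T-like cells at 67.2 CPM (43.9 to 98.4) at 12 h and, from 11 UMIs, within 39.9 to 143 CPM at 0 h. At 12 h the intervals of type 17 T-like and B-cell-like cells overlapped, as they did at 0 h.

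Shares of cells were compared at 1 depth. With every cell thinned to 1000 UMIs, which left out 40 NK-like cells at 12 h and 12 at 0 h, 24 and 8 ILC1-like cells and 87 and 39 B-cell-like cells with fewer, Gzma was detected in 95.1% (93.1 to 96.7) of NK-like cells at 12 h and 96.3% (93.6 to 98.1) at 0 h. It was detected in 59.6% and 59.4% of ILC1-like cells, in 18.1% (15.4 to 21.1) and 17.1% (14.1 to 20.6) of effector or memory CD8 T cells, and in 6.29% and 9.50% of innate-like PLZF T cells. The background in B-cell-like cells was 5.88% and 10.2%. By share, innate-like PLZF T cells were at the level of B-cell-like cells for this gene. By CPM they lay above them at both times, with intervals of 68.8 to 89.6 against 45.4 to 61.1 at 12 h and 138 to 176 against 97.5 to 118.5 at 0 h. However, 1 innate-like PLZF T cell held 19 of the 228 Gzma UMIs at 12 h, and 1 held 55 of the 270 at 0 h. These intervals were not computed without those cells, so the gap by CPM, above all at 0 h, may rest on 1 cell. Unthinned, Gzma was detected in 96.7% and 97.6% of NK-like cells (median depth 1827 and 1932.5 UMIs) and in 9.05% and 17.5% of B-cell-like cells (1590.5 and 1713 UMIs).

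**Figure D2:**
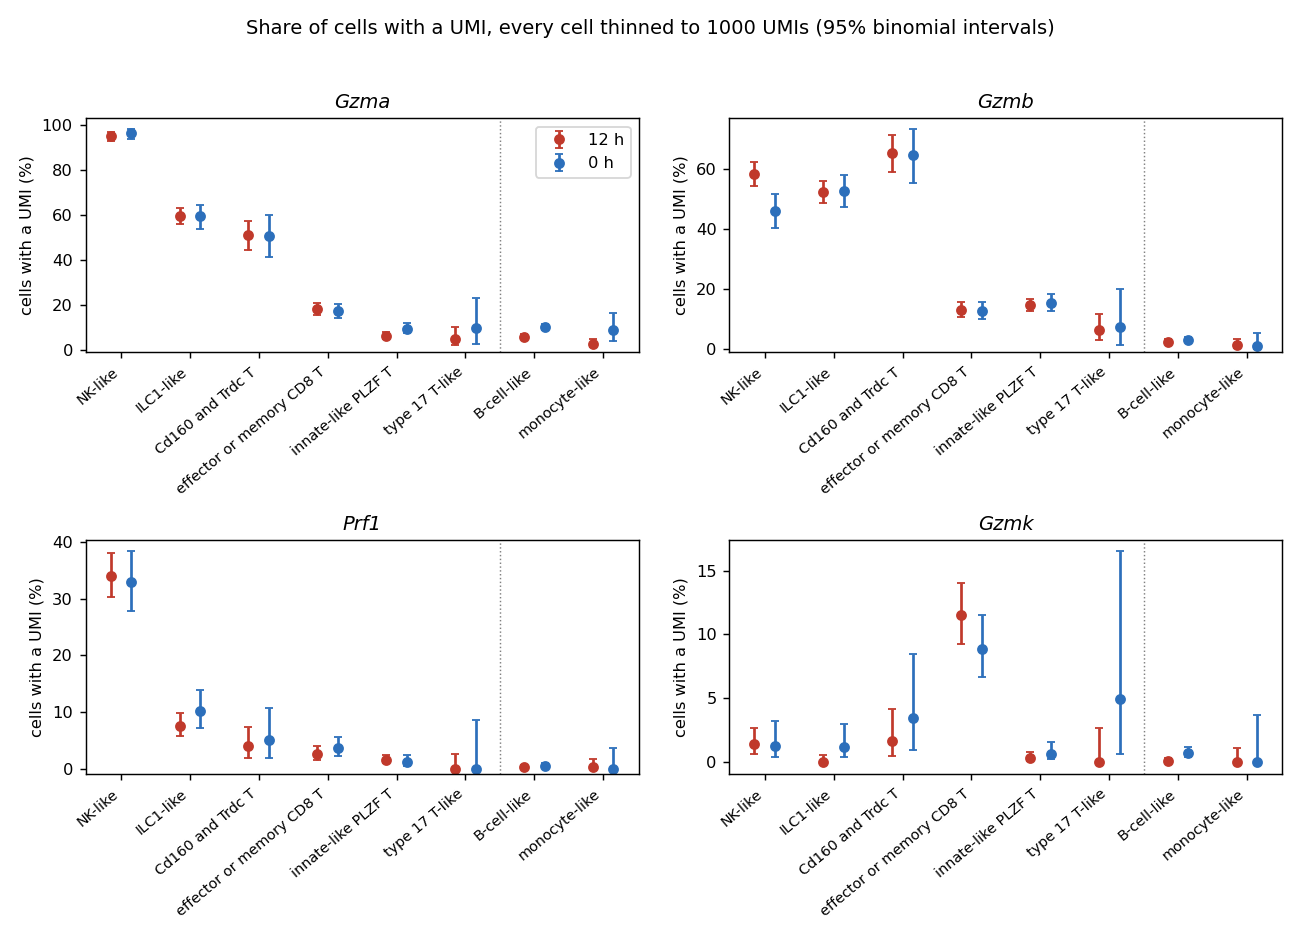
Share of cells with a UMI (y axis, percent, each panel with its own scale) of Gzma, Gzmb, Prf1 and Gzmk in 8 classes at 12 h (red) and 0 h (blue), with every cell thinned to 1000 UMIs and 95% binomial intervals. The dotted line sets apart B-cell-like and monocyte-like cells as background, where Gzmb lies at or under 3.2% and Gzmk is detected in 11.5% and 8.84% of effector or memory CD8 T cells.

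Gzmb was shared between more classes: NK-like cells held 26.8% of its UMIs at 12 h and 17.7% at 0 h, and ILC1-like cells 26.2% and 23.4%. At 12 h it was highest in Cd160 and Trdc T cells at 1913 CPM (1799 to 2031), followed by NK-like cells at 1624 CPM (1557 to 1692) and ILC1-like cells at 1409.9 CPM (1351 to 1470.2), with no overlap between neighbours. At 0 h the order of the last pair was turned: 1905 CPM in Cd160 and Trdc T cells, 1044 CPM in ILC1-like cells and 832 CPM in NK-like cells. Innate-like PLZF T cells had 207 and 216 CPM and effector or memory CD8 T cells 176 and 111 CPM, with intervals that overlapped at 12 h (190.4 to 224 and 159 to 194) and not at 0 h (194 to 239 and 95.7 to 127). By share of cells, innate-like PLZF T cells were above B-cell-like cells for Gzmb, unlike for Gzma: after thinning, 14.6% (12.7 to 16.8) of them held a Gzmb UMI at 12 h and 15.4% (12.7 to 18.4) at 0 h, against 2.49% and 3.20% of B-cell-like cells. Naive CD8-like cells (22.7 CPM at both times) and naive CD4-like cells (21.4 and 27.3 CPM) had intervals that overlapped those of B-cell-like cells.

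Candidate gamma-delta T cells were also taken cell by cell, as T cells with a Trdc UMI, a Cd3 UMI and none of Trac. Trac is sparse, with 467 UMIs in 1239 innate-like PLZF T cells at 12 h, so its absence does not mark a gamma-delta cell. The gate drew on all T sub-clusters, the cycling cluster of mixed type among them. In the Cd160 and Trdc sub-cluster, 33 cells at 12 h and 21 at 0 h held Trdc and no Trac. The gated cells numbered 94 at 12 h and 59 at 0 h and held Gzma at 1923 and 2125 CPM, Gzmb at 641 and 567 CPM, and Nkg7 at 2043 and 2359 CPM. The 10 such cells of 12 h and the 3 of 0 h that lay in the type 17 sub-cluster held 2 and 0 Gzma UMIs and 1 and 0 Gzmb UMIs. Within the Cd160 and Trdc sub-cluster, cells with Trac but no Trdc held Gzmb at 1828 and 2331 CPM and cells with Trdc but no Trac at 1566 and 1467 CPM.

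Gzmc lay mainly in ILC1-like cells. ILC1-like cells, 7.74% of kept cells at 12 h and 4.41% at 0 h, held 61.7% and 66.2% of its UMIs, at 560.0 CPM (523 to 598) at 12 h and 296 CPM (259 to 337) at 0 h. NK-like cells had 150.2 and 63.0 CPM, Cd160 and Trdc T cells 82.5 and 29.2 CPM, and every other class shown in the plot of levels under 15 CPM. Of the clusters not in that plot, the interferon-led T cluster held 118.9 CPM at 12 h and 0 UMIs in 39 cells at 0 h. In it 1 cell held 48 of the 110 UMIs at 12 h. The cluster with T and B cell markers held 133 and 7.07 CPM, from 28 UMIs at 12 h, of which 1 cell held 27, and 1 UMI at 0 h. Even in ILC1-like cells it came from a minority: 143 of 735 cells (19.5%) held a UMI at 12 h and 48 of 350 (13.7%) at 0 h, and 11 and 5 cells held 50% of the UMIs. In NK-like cells 1 cell held 102 of 207 UMIs at 12 h and 1 cell 35 of 46 at 0 h, so the NK-like level of Gzmc is that of a few cells. The related genes Gzmd, Gzme, Gzmf, Gzmg and Gzmn were nearly silent: Gzme and Gzmf had 1 UMI each in ILC1-like cells at 12 h and the other 3 had none in the 5 classes with cytotoxic genes.

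**Figure D3:**
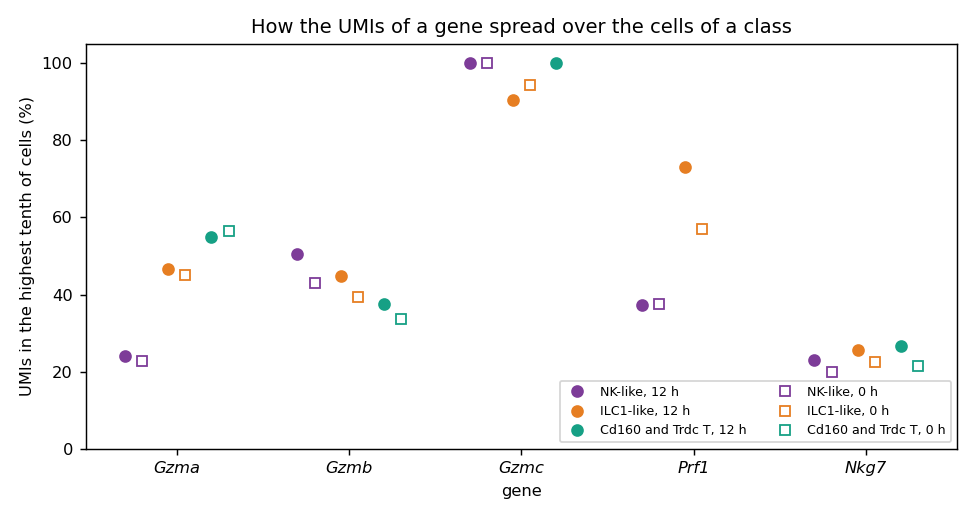
Percentage of a gene's UMIs (y axis) held by the 10% of cells with the most of them, in NK-like, ILC1-like and Cd160 and Trdc T cells (colours) at 12 h (filled circles) and 0 h (open squares). These cells held 23.9% and 22.9% of Gzma UMIs in NK-like cells but 90.6% and 94.3% of Gzmc UMIs in ILC1-like cells.

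Gzmk and Gzmm lay mainly in effector or memory CD8 T cells, which made up 7.82% of kept cells at 12 h and 7.09% at 0 h. These cells held 48.9% and 45.9% of Gzmk UMIs and 61.4% and 75.3% of Gzmm UMIs. The class pools 2 sub-clusters, of 991 and 327 cells over all libraries. The gene that set the larger one most apart from other lymphocytes was Gzmm, and for the smaller one it was Gzmk. Whether the same cells held both genes was not tested. Gzmk stood at 105.4 CPM (92.3 to 119.8) at 12 h and 102 CPM (87.3 to 118) at 0 h in the pooled class. CD4 or regulatory T-like cells had 30.7 and 29.5 CPM of Gzmk, Cd160 and Trdc T cells 21.5 and 21.9 CPM and NK-like cells 16.7 and 13.7 CPM. Clusters that are not in the plot of levels held Gzmk too. The cycling cluster had 58.2 CPM (44.8 to 74.3) at 12 h and 105.1 CPM (77.8 to 139) at 0 h. The interferon-led T cluster had 64.9 and 9.22 CPM, from 60 and 1 UMIs. The cluster with T and B cell markers had 33.3 and 113 CPM, from 7 and 16 UMIs. Gzmm stood at 66.7 CPM (56.4 to 78.3) at 12 h and 94.3 CPM (80.6 to 109.7) at 0 h in effector or memory CD8 T cells, against 10.9 and 24.7 CPM in NK-like cells. In ILC1-like cells Gzmm had 8 UMIs at 12 h and 0 at 0 h, which allows a level of up to 3.91 CPM at 0 h if a count of 0 may stand for up to 3.

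Prf1 was highest in NK-like cells, which held 57.1% of its UMIs at 12 h and 46.4% at 0 h. It reached 382 CPM (350.4 to 416) at 12 h and 421 CPM (375 to 470.5) at 0 h in NK-like cells, against 76.7 and 103 CPM in ILC1-like cells. Cd160 and Trdc T cells had 32.3 and 47.4 CPM, and effector or memory CD8 T cells 27.0 and 30.9 CPM from 60 and 55 UMIs, with intervals that overlapped those of Cd160 and Trdc T cells at both times. After thinning, 34.0% (30.2 to 38.0) of NK-like cells at 12 h and 32.9% (27.8 to 38.4) at 0 h held a UMI, 7.59% and 10.2% of ILC1-like cells, and 0.23% and 0.50% of B-cell-like cells. Cd160 and Trdc T cells, which led for Gzmb, came after NK-like and ILC1-like cells for Prf1.

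Nkg7 was found in many classes, and NK-like cells held 24.2% of its UMIs at 12 h and 21.6% at 0 h. The highest levels were 5516 and 5669 CPM in NK-like cells, 3068 and 3584 CPM in Cd160 and Trdc T cells, and 3025 and 3335 CPM in ILC1-like cells. The last 2 classes had overlapping intervals at both times. Effector or memory CD8 T cells had 2282 and 2141 CPM and innate-like PLZF T cells 1946 and 2087 CPM, with intervals that overlapped at 0 h and not at 12 h. Naive CD8-like cells had 758 and 742 CPM, while naive CD4-like cells had 89.7 and 103 CPM, with an interval that overlapped that of B-cell-like cells at 0 h and not at 12 h. CD4 or regulatory T-like cells had 703 and 649 CPM. After thinning, 81.2% of innate-like PLZF T cells at 12 h and 84.3% at 0 h held a UMI of Nkg7, although 14.6% and 15.4% held one of Gzmb and 1.57% and 1.21% one of Prf1.

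How the genes combined in single cells was read at 1000 UMIs per cell. At least 3 of the 7 were detected in 69.2% of NK-like cells at 12 h and 61.5% at 0 h, 43.2% and 44.2% of ILC1-like cells, 12.2% and 10.5% of effector or memory CD8 T cells and 1.32% and 2.71% of innate-like PLZF T cells. In ILC1-like cells Gzmb was found in 64.9% (60.1 to 69.4) of 424 cells with Gzma and 33.4% (28.0 to 39.2) of 287 cells without it at 12 h, and in 68.5% of 203 and 29.5% of 139 cells at 0 h. In effector or memory CD8 T cells these shares were 33.6% (25.6 to 42.4) of 131 and 8.45% (6.33 to 10.98) of 592 cells at 12 h, and 32.6% of 95 and 8.50% of 459 cells at 0 h. In the same class Gzma was found in 45.8% (34.8 to 57.1) of 83 cells with Gzmk and 14.5% (11.9 to 17.5) of 640 cells without it at 12 h, and in 32.7% (19.9 to 47.5) of 49 and 15.6% (12.6 to 19.1) of 505 cells at 0 h. In innate-like PLZF T cells the shares with Gzmb, among cells with and without Gzma, were 11.8% and 14.8% at 12 h, and 20.6% and 14.8% at 0 h, with overlapping intervals. In ILC1-like cells Gzmb was found in 72.9% (62.9 to 81.5) of 96 cells with Gzmc and 48.9% (44.9 to 53.0) of 615 cells without it at 12 h, while at 0 h the shares of 63.9% (46.2 to 79.2) and 51.3% (45.6 to 57.0) had overlapping intervals. The 2 shares of such a pair come from cells of the same library, and the part of capture in them was not tested.

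The 12 h and 0 h levels were then set against each other, class by class, for genes with at least 50 UMIs in both sums together, and a ratio was counted when it passed 1.5-fold. In NK-like cells 2 of the 5 measured members were past 1.5-fold higher and 0 lower, where 4.19% of 4200 measured genes were past it upwards and 5.5% downwards. In ILC1-like cells 1 of 5 was higher and 0 lower (2.66% and 7.25% of all measured genes), in Cd160 and Trdc T cells 1 of 4 and 0 (3.86% and 5.03%), and in effector or memory CD8 T cells 1 of 6 and 0 (2.72% and 3.96%). In innate-like PLZF T cells 0 of 4 were higher and 1 lower (1.88% and 6.96%), and in B-cell-like cells 0 of 3 were higher and 3 lower (1.49% and 6.78%).

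In NK-like cells Gzmb was higher at 12 h. Its level was 1624 CPM at 12 h and 832 CPM at 0 h, a ratio of 1.95 (1.78 to 2.14), and after thinning 58.2% (54.2 to 62.2) of cells at 12 h and 46.0% (40.4 to 51.6) at 0 h held a UMI. Gzma (ratio 1.04), Prf1 (0.909, 0.788 to 1.05) and Nkg7 (0.973, 0.937 to 1.01) lay close to 1, near the median of all measured genes. Part of the difference lay in an NK-like sub-cluster, here called interferon-led, which held 57 cells at 12 h and 3 at 0 h. It was picked because its level of Isg15, an interferon-induced gene, was above 1000 CPM. The genes that set it most apart from other lymphocytes included Cxcl10, Usp18 and Isg15, and also Gzmc and Gzmb. Without this sub-cluster the Gzmb ratio was 1.42 (1.29 to 1.56), from 1174 CPM at 12 h and 827 CPM at 0 h, which is no longer past 1.5-fold. Of the measured members, 0 of 4 were past it in either direction (3.43% and 5.02% of 4027 genes).

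The interferon-led cells at 12 h held Gzmb at 5459.6 CPM (5085 to 5854), and 54 of the 57 cells had a UMI of it, with a median of 11 UMIs per cell against 1 in the other NK-like cells. Isg15, which encodes an interferon-induced ubiquitin-like protein and by which these cells were picked, stood at 3145 CPM in them. It stood at 465 CPM in all NK-like cells of 12 h, against 95.9 CPM in all NK-like cells of 0 h. Their Gzma (16275 CPM), Nkg7 (4630.3 CPM) and Prf1 (242 CPM, 168 to 336) were at or below the levels of the other NK-like cells of 12 h (18249.5, 5620.1 and 399 CPM). The 11 conventional NK markers summed to 2136 CPM in them and the 8 ILC1 markers to 1106 CPM. These sums were 3214 and 371 CPM in all NK-like cells and 332.5 and 2458 CPM in ILC1-like cells at 12 h. The ILC1 genes used for naming, Cxcr6, Itga1 and Il7r, stood at 55.3, 41.5 and 41.5 CPM in the interferon-led cells, from 8, 6 and 6 UMIs. In ILC1-like cells of 12 h they stood at 123, 119 and 218 CPM, and in all NK-like cells at 13.8, 13.8 and 19.6 CPM. Whether the sub-cluster mixes both types was not tested. The 9 T cell markers summed to 1700.1 CPM in the interferon-led cells, against 754 CPM in all NK-like cells at 12 h. Low-UMI clusters, left unnamed, held 161 further cells with an Ncr1, Klrb1c or Klre1 UMI at 12 h and 474 at 0 h, and Gzmb stood at 1141 and 764 CPM in them.

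**Figure D4:**
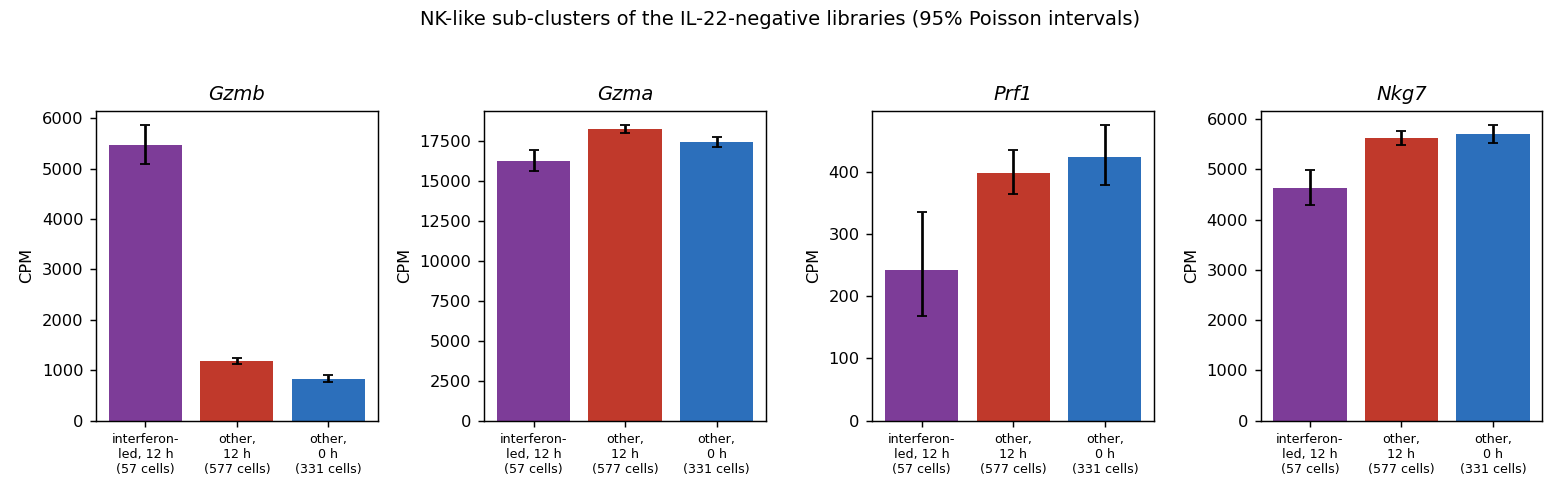
Level (y axis, CPM, each panel with its own scale, 95% Poisson intervals) of Gzmb, Gzma, Prf1 and Nkg7 in the interferon-led NK-like sub-cluster at 12 h and in the other NK-like cells at 12 h and 0 h. Gzmb stands at 5459.6, 1174 and 827 CPM, while the other 3 genes are not higher in the interferon-led cells.

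Gzmc was past 1.5-fold higher in 3 classes, each time from few cells. In ILC1-like cells it had 869 UMIs at 12 h and 227 at 0 h, a ratio of 1.89 (1.63 to 2.20), and after thinning 13.5% (11.1 to 16.2) and 10.5% (7.48 to 14.3) of cells held a UMI, with overlapping intervals. When ILC1-like cells were gated on marker UMIs in place of clusters (183 and 126 cells), the ratio was 0.80. With the clusters, it was 3.45 without the 10 top cells of each library. In NK-like cells the ratio of 2.38 rests on the single cells named above: it was 5.07 without the top cell of each library and 1.49 without the interferon-led sub-cluster. In Cd160 and Trdc T cells 46 and 8 UMIs gave 2.83 (1.32 to 6.93), and 1.26 with a stricter filter on cells (at least 500 genes and under 5% mitochondrial UMIs).

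Gzmb in ILC1-like cells was 1.35 times (1.24 to 1.47) as high at 12 h as at 0 h, and did not pass 1.5-fold. The share of cells with a UMI was 52.2% at 12 h and 52.6% at 0 h after thinning. In Cd160 and Trdc T cells the Gzmb ratio was 1.00 (0.903 to 1.12). It was 1.87 over all kept cells with at least 2 UMIs of gamma-delta receptor genes and none of Trac. That gate required no Cd3 UMI, so NK-like and ILC1-like cells could enter it. ILC1-like Gzma (0.862, 0.832 to 0.894), Prf1 (0.745, 0.556 to 1.00) and Nkg7 (0.907, 0.864 to 0.952) were all below 1, beside a median log2 ratio of -0.08 over all measured genes of the class.

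The class of effector or memory CD8 T cells pools 2 sub-clusters, and the part of its makeup in the ratios below was not tested. The member past 1.5-fold in it was Gzmb. It stood at 176 CPM (159 to 194) at 12 h and 111 CPM (95.7 to 127) at 0 h, a ratio of 1.59 (1.34 to 1.90). The thinned shares of cells with a Gzmb UMI had overlapping intervals of 10.6 to 15.7% at 12 h and 9.98 to 15.7% at 0 h, and 29 cells at 12 h and 31 at 0 h held 50% of the Gzmb UMIs. The Gzmb ratio was 1.49 with doublets kept, 1.38 as a mean over cells and 1.27 when the members were among the clustering genes, so it did not pass 1.5-fold under these 3 settings. Gzma stood at 866 CPM at 12 h and 594 CPM at 0 h, a ratio of 1.46 (1.35 to 1.57). Over the other settings it ranged between 1.30 with the members among the clustering genes and 1.62 without the 10 top cells. It was also past 1.5-fold at 1.52 without the top cell of each library, at 1.53 with doublets kept and at 1.60 without barcodes shared between libraries. Gzmm had a ratio of 0.707 (0.563 to 0.887), inside the threshold of 1 over 1.5. Its thinned share of cells did not fall, at 7.33% (5.54 to 9.48) at 12 h and 5.23% (3.53 to 7.43) at 0 h, with overlapping intervals. Gzmk (1.04, 0.851 to 1.27), Prf1 (0.875, 0.597 to 1.29) and Nkg7 (1.07, 1.02 to 1.11) lay close to 1, beside a median log2 ratio of -0.01 over all measured genes of the class.

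In innate-like PLZF T cells the 1 member past the threshold was Gzma, at 78.7 CPM at 12 h and 156 CPM at 0 h, a ratio of 0.503 (0.420 to 0.602). The background in B-cell-like cells had a ratio of 0.491 for the same gene, and the ratio was 0.687 with the stricter filter. Gzma was likewise past 1.5-fold lower in naive CD8-like cells (0.478, where 5.04% of measured genes were past it upwards and 3.51% downwards), in CD4 or regulatory T-like cells (0.421, 2.84% and 8.22%) and in naive CD4-like cells (0.634, 4.11% and 4.66%). The part of free RNA in these ratios was not tested. Gzmb (0.958, 0.841 to 1.09), Prf1 (0.961) and Nkg7 (0.932) of innate-like PLZF T cells lay close to 1. A separate interferon-led T cluster of 320 cells at 12 h and 39 at 0 h held Gzmb at 748 CPM (693 to 806) and 138 CPM (77.4 to 228). It mixes several T cell types, so a change of its makeup and a change within a type cannot be told apart.

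**Figure D5:**
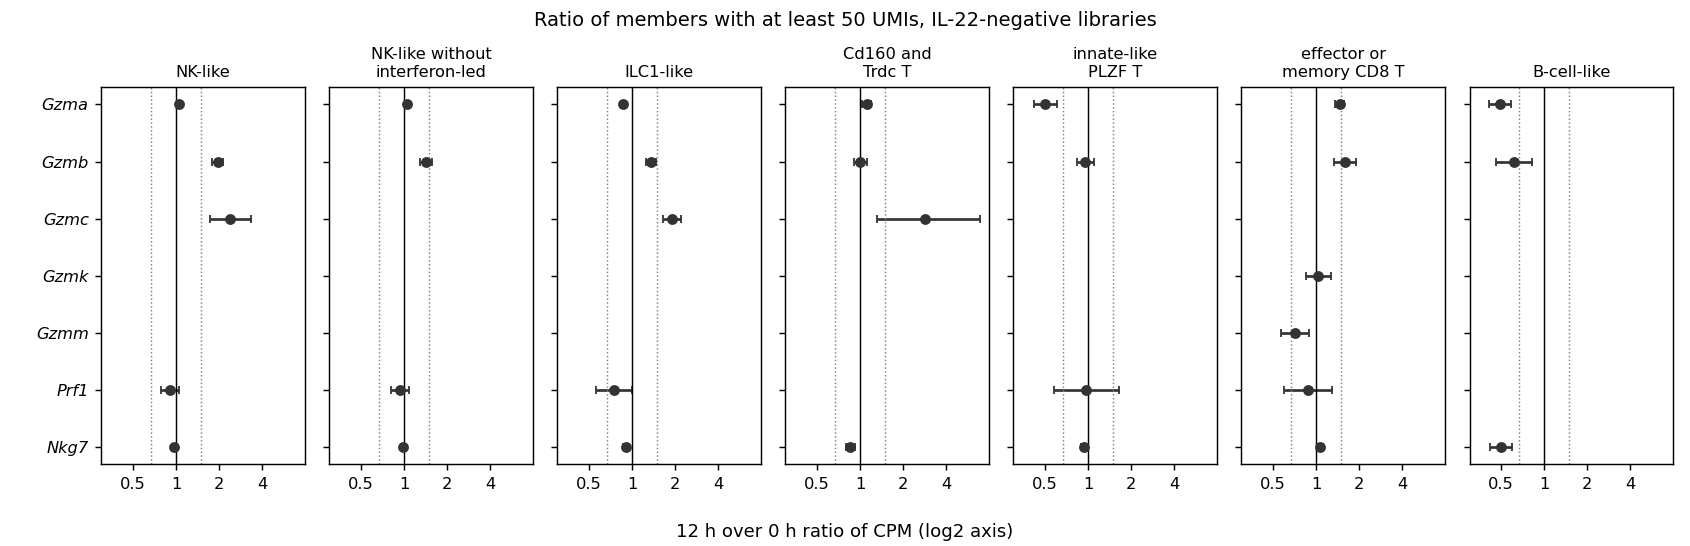
Ratio of CPM at 12 h over 0 h (x axis, log2 scale) of each member with at least 50 UMIs, in 6 classes of cytotoxic cells or their subsets and in B-cell-like cells, with exact 95% intervals for counting error. Dotted lines mark 1.5-fold in each direction. Gzmb is 1.95 in NK-like cells and 1.42 without the interferon-led sub-cluster, and all 3 measured members are lower in B-cell-like cells.

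Genes that act with granzymes were counted from fixed lists in the same 5 classes. Of 16 genes that pack, process or release granules, such as Srgn (serglycin, the granule proteoglycan) and Ctsc (cathepsin C, which activates progranzymes), 4 to 12 were measured in a class and 0 were past 1.5-fold in either direction in any of them. Of 7 inhibitor genes, 5 were measured in NK-like and 5 in effector or memory CD8 T cells. In NK-like cells 1 was higher and 1 lower (4.19% and 5.5% of all measured genes). In effector or memory CD8 T cells 2 were higher and 0 lower (2.72% and 3.96%). In ILC1-like, innate-like PLZF T and Cd160 and Trdc T cells 5, 5 and 3 were measured, and 0 were past 1.5-fold. Serpinb6b, a serpin that inhibits granzyme A in the mouse, was past 1.5-fold higher in NK-like (1.55, 1.30 to 1.85) and effector or memory CD8 T cells (1.66, 1.25 to 2.23). Serpinb9, the serpin that inhibits granzyme B, was at 1.65 (1.17 to 2.37) in effector or memory CD8 T cells, and the related Serpinb9b at 0.664 in NK-like cells. The median log2 ratio of the measured inhibitor genes was 0.26 in NK-like and 0.07 in effector or memory CD8 T cells, beside -0.03 and -0.01 over all measured genes.

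The shares of all measured genes past 1.5-fold in each class, given above, stand beside each of the following counts. Of the 5 genes of other killing routes, 5 were measured in innate-like PLZF T cells and 4 in effector or memory CD8 T cells. In NK-like, ILC1-like and Cd160 and Trdc T cells 2, 4 and 3 were measured, and 0 were past 1.5-fold. Lta (lymphotoxin alpha) was higher in innate-like PLZF T cells (28.6 CPM at 12 h, 8.11 CPM at 0 h, ratio 3.53, 1.99 to 6.73) and in effector or memory CD8 T cells (19.4 and 11.2 CPM, 1.73, 0.993 to 3.10). Of 12 regulators, 11 were measured in effector or memory CD8 T cells and 9 in innate-like PLZF T cells. In NK-like, ILC1-like and Cd160 and Trdc T cells 9, 7 and 5 were measured, and 0 were past 1.5-fold. Stat5b was at 1.51 (0.91 to 2.56) and Nfil3 at 0.665 (0.392 to 1.12) in effector or memory CD8 T cells, and Stat5a at 0.573 in innate-like PLZF T cells. Tbx21, the T-box factor that drives granzyme and perforin genes, was between 0.811 and 1.30 in the 4 classes in which it was measured. Of 10 cytokine receptor genes, 2 of 7 measured were lower in NK-like cells (lowest Il7r at 0.510), where 5.5% of all measured genes were. In ILC1-like cells 2 of 7 were lower (lowest Il18r1 at 0.544), where 7.25% were. In innate-like PLZF T cells 2 of 9 were lower (lowest Il12rb1 at 0.523), where 6.96% of all measured genes were, and Il2ra was higher (1.51). In effector or memory CD8 T cells 1 of 6 was lower (Il18rap at 0.661), where 3.96% were, and in Cd160 and Trdc T cells 0 of 2 were past it. The median log2 ratio of the measured receptor genes was -0.24 in NK-like, -0.43 in ILC1-like, -0.39 in innate-like PLZF T, -0.08 in effector or memory CD8 T and -0.05 in Cd160 and Trdc T cells. Over all measured genes it was -0.03, -0.08, -0.10, -0.01 and -0.04 in the same order of classes. Of 8 genes that follow IL-15 or IL-2 or proliferation, Xcl1 was higher in NK-like cells (1.54, 1 of 4 measured), Cish was higher in effector or memory CD8 T cells (1.66, 1 of 5) and Top2a lower in innate-like PLZF T cells (0.51, 1 of 7). In ILC1-like and Cd160 and Trdc T cells 0 of 6 and 0 of 2 were past 1.5-fold.

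The IL-22-positive libraries held few cytotoxic cells. T cells in them numbered 40 at 12 h and 41 at 0 h, against 4043 and 2643 in the IL-22-negative libraries. These numbers take in the interferon-led T cluster, the cycling cluster and a T cluster led by Ccl1 and Il2ra. The cycling cluster is of mixed type and rich in Gzma, so the T cell values below are not of T cells alone. At 12 h, 3 of the 40 IL-22-positive T cells held 52 Gzma UMIs, of which 1 cell held 43, against 8478 UMIs in 812 IL-22-negative T cells. At 0 h, 4 of the 41 held 174 Gzma UMIs, of which 1 cell held 121, against 4259 UMIs in 623 IL-22-negative T cells. The Gzma ratio of IL-22-positive over IL-22-negative T cells was 0.693 at 12 h and 0.122 without the top cell, and 2.17 at 0 h and 0.685 without the top cell. Gzmb had 7 UMIs in 4 IL-22-positive T cells at 12 h and 21 UMIs in 5 at 0 h. Nkg7 was detected in 28 of the 40 and 23 of the 41, at 1477 and 1411 CPM, against 1613 and 1513 CPM in IL-22-negative T cells, with ratios of 0.916 (0.772 to 1.08) at 12 h and 0.933 (0.804 to 1.08) at 0 h. The 8 IL-22-positive type 17 T-like cells of 0 h held 0 Gzma UMIs. The background was lower there: at 12 h, 386 IL-22-positive monocyte-like cells held 0 Gzma and 1 Nkg7 UMI, against 162 and 95 UMIs in 341 IL-22-negative ones. The 10 (12 h) and 7 (0 h) IL-22-positive NK-like cells held Gzma at 25753 and 21612 CPM, against 18042 and 17339.7 CPM in IL-22-negative ones. Gzmb went the other way at 12 h, at 520 against 1624 CPM (ratio 0.320, 0.138 to 0.633), from 8 UMIs. At 0 h it stood at 843 against 832 CPM (1.01, 0.576 to 1.66), from 16 UMIs.

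Finally, the genes whose pattern was most like each member were found by Pearson's r of log2(CPM + 10) over 28 points, which are 14 classes at 2 times and share libraries, depth and free RNA. Klre1, Klra9 and Styk1 were most like Gzma (0.93 to 0.94), and Xcl1, Klre1 and Klrb1c most like Gzmb (0.96 to 0.97), where Klre1, Klra9 and Klrb1c are NK receptors. Trdv4, Klrb1f and Gm11714 were most like Gzmc (0.94 to 0.96), Ifngas1, Apobec2 and Cela1 most like Gzmk (0.77 to 0.82), and Ifngas1, Cd163l1 and Gm4208 most like Gzmm (0.77 to 0.84). Tmem37, Klrc3 and Klri2 were most like Prf1 (0.92), and Ifitm10, AW112010 and Ctsw most like Nkg7 (0.96 to 0.97). Among the members, Gzma and Gzmb had an r of 0.91 and Gzmk and Gzmm of 0.83, while Gzmc with Gzmk had 0.11 and Gzmc with Gzmm 0.15.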

How the data were processed

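The deposited matrices hold raw UMI counts, 1 matrix per library, from 10x Single Cell 3′ v2 libraries of sorted liver leukocytes. Their headers name Cell Ranger 4.0.0, per the file headers. Version 3.0.1 and mm10 are given per the submitters' processing notes. Kept counts summed to 26799992 (12 h) and 17411977 (0 h) UMIs in the IL-22-negative libraries and 5030671 (12 h) and 1134292 (0 h) in the IL-22-positive ones.

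A barcode was kept if it had 200 genes or more and a mitochondrial share below 10%. Scrublet (Scanpy 1.11.5) doublets were removed, 607 at 12 h and 373 at 0 h among IL-22-negative barcodes and 0 in both others. Its automatic threshold called 1 barcode at 12 h, so the IL-22-negative 0 h threshold of 0.243 served for all, a choice made after that result was seen. Cells were clustered on 2000 variable genes, 30 components, 15 neighbours and Leiden resolution 1 (leidenalg 0.10.2), and lymphocytes again at resolution 1. Counts were summed by class and library and scaled to CPM. Intervals are exact Poisson, binomial or conditional 95% intervals (SciPy 1.17.1). Cells under 1000 UMIs were left out of thinned shares. A class needed 50 cells in each IL-22-negative library to enter the counts past 1.5-fold and the search for genes like each member. Levels are also given for smaller groups, such as the 41 type 17 T-like cells of 0 h. The ratio and its interval were tested on simulated independent Poisson counts. These cannot show how the intervals behave where few cells hold most of a gene's UMIs. Low-UMI clusters, a cluster with T and B markers and clusters led by haemoglobin genes, by Arg1, by Prtn3 or by Fscn1 were given no name.

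Named genes are the 7 members, the highest and lowest list gene past 1.5-fold in each class, and the 3 genes most like each member. The members, lists and rules were chosen with earlier results of these data known. Isg15, Srgn, Ctsc and Tbx21 were named after their values were seen.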

Additional observations from a re-analysis of the deposited data

How the results depend on the processing

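Over 30 ratios of a member in a class and 12 other settings, 307 of 325 values kept the direction of the ratio as reported, and for the 8 ratios past 1.5-fold 87 of 88 did. The exception was Gzmc in ILC1-like cells, at 0.80 with cells gated on marker UMIs. Both counts take in a class that pools effector or memory and naive CD8 cells, past 1.5-fold for Gzma (1.51) and Gzmb (1.64). Its effector or memory cells are therefore counted more than once. The Gzmb ratio in NK-like cells moved outside its interval to 1.55 with gated cells and to 1.42 without the interferon-led sub-cluster, that in ILC1-like cells to 1.20 with gated cells, and that in effector or memory CD8 T cells to 1.27 with the members among the clustering genes. Gzmc in NK-like cells ranged from 1.15 (mean over cells) to 12.3 (at least 500 genes and under 5% mitochondrial UMIs), and the few cells that hold it are given above. Over the 5 classes, 5 of 24 measured pairs of member and class were past 1.5-fold higher and 1 lower. At 2-fold these were 2 and 0. The higher count was 3 as a mean over cells and 3 without the interferon-led sub-cluster. The lower count was 0 under that stricter cell filter, 3 with at least 20 UMIs and 6 with at least 1. The cause of these shifts was not tested, except that a lower UMI minimum lets in pairs of few counts. Leaving out the interferon-led sub-cluster, the 10 top cells or the shared barcodes was chosen after seeing the data. Thinning to 1000 UMIs lowered depth by construction and moved 61 of 84 shares outside their intervals.

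No paired analysis was possible because each group has 1 library and the labels carry no replicate numbers. With 1 library per group the spread between mice is unknown, so the intervals show only counting error, and members with under 50 UMIs are limited by depth (Gzmk and Gzmm in NK-like, ILC1-like, Cd160 and Trdc T and innate-like PLZF T cells, Gzmc in innate-like PLZF T and effector or memory CD8 T cells, and Prf1 in Cd160 and Trdc T cells).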
